A study of Mus musculus with 6 samples.

Results

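The 10 genes described here encode ubiquitin ligases that have been tied to muscle wasting: the MuRF ligases Trim63, Trim55 and Trim54, the F-box ligases Fbxo32, Fbxo30, Fbxo40, Fbxo31 and Fbxo21, and the other RING-type ligases Traf6 and Cblb. They were found by gene symbol among 22180 genes measured on Affymetrix whole-transcript arrays, and all 10 had a probe set naming 1 gene alone. The arrays held RNA from the tibialis anterior, a fast muscle of the lower leg, of male C57Bl/6 mice. The sham group was 3 mice that had a mock operation at 11 weeks of age and carry the diet label fasted. The castrated group was 3 mice whose testes were removed at 11 weeks and that carry the diet label refed. All were sampled at 18 weeks, 7 weeks after surgery, following an overnight fast. The series design has the refed mice eating for 30 minutes before a final fast of 4 hours, whereas the protocol given for each sample has all mice eating. Surgery and diet label split the samples the same way, so the parts of castration and feeding cannot be told apart, and "castrated" below always means castrated and labelled refed. The labels do not state that the samples came from separate litters or days, so p-values measure only the spread between these samples.

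A ubiquitin ligase picks the protein to be tagged with ubiquitin, and chains of ubiquitin send the protein to the proteasome. The MuRF proteins bind the sarcomere and have a RING-containing TRIM structure. F-box proteins work as the substrate-recognising subunit of a cullin-RING complex of the SCF type, built on the scaffold Cul1. Trim63 (MuRF1) and Fbxo32 (atrogin, or MAFbx) are classic markers of muscle atrophy, which rise with fasting, disuse, denervation and glucocorticoids and fall with insulin signalling. FOXO transcription factors drive both genes.

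The sequence before the start of Trim63 is shown because forkhead factors and the glucocorticoid receptor are known regulators of this gene. RefSeq promoter windows, 250 bases before to 50 after a start, were on hand for 8 of the 10 genes (9 windows, assembly GRCm38.p6, Fbxo40 with 2 starts). Each was searched on both strands for the forkhead core GTAAACA, the steroid receptor half-site AGAACA and the E-box CANNTG. Capitals mark matches to the forkhead core or the half-site, read 5′ to 3′ on the gene's strand. The stretches with a match are chr4:134314880-134314972 (plus strand), chr5:31116362-31116435 (plus strand) and chr16:36979267-36979352 (minus strand).
Trim63: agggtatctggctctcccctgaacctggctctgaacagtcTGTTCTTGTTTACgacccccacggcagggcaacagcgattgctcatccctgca
Trim54: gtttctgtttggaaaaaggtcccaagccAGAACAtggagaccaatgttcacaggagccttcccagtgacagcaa
Fbxo40: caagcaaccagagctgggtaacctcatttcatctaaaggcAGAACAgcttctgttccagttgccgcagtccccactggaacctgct
In Trim63 the half-site and the forkhead core, both on the opposite strand, lie side by side with no base between them. The forkhead core was found in 1 of the 9 windows and in 3.65% of 32851 windows of all genes. The half-site was found in 3 of the 9 and in 19% of all windows, and the E-box in 6 of the 9 and in 72.3% of all. These are matches of letters, and binding was not measured.

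The 5 F-box ligases and 2 of the 3 MuRF ligases had lower mean values in castrated muscle, while Trim55 had a higher one. No ligase passed the test over all genes. The differences ran from −0.41 on the log2 scale for Trim63, which is −24.9% on the linear scale, to 0.31 for Trim55, or 1.24-fold. Of the 10 genes 8 were lower and 2 higher, with a median log2 difference of −0.17, where the median of all 22180 genes was −0.0056 and 51.5% of them were lower. All 10 lay at or above the 73.8th percentile of mean signal. Genes above the median signal had a median difference of −0.030, and the share of them that was lower was not counted. At a limma adjusted p under 0.05 the count was 0 of the 10, and of all genes 3 passed, or 0.0135%. At an unadjusted limma p under 0.05 the count was 3 of the 10, Trim55, Trim54 and Fbxo30, against a background of 7.13%. Without variance moderation the count was 2 of the 10, against a background of 1412 of the 22180 genes. In 5 of the 10 the groups did not overlap, 4 lower and 1 higher, where 12.8% of all genes did not overlap, 7.02% lower. In bulk RNA a change in the share of a cell type and a change of RNA per cell cannot be told apart.

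Values on the 6 arrays were alike across all genes, with array medians between 5.04 and 5.10. The lowest value of any ligase on any array was 6.59. Myofibre markers fitted the labelled tissue, with 13 of 13 measured at or above the 99.8th percentile of mean signal. Of the other marker lists, 8 of 9 slow fibre, 8 of 9 tendon, 7 of 8 adipocyte and 6 of 7 endothelial markers were higher in castrated samples, and 7 of 8 macrophage markers were lower. After subtracting each gene's mean, the slow fibre median was 0.86 on the array of castrated sample 1, while castrated samples 2 and 3 had −0.24 and −0.25 and the sham samples −0.29 to −0.079. The tendon median likewise lay between −0.65 and 0.11 for the sham group and between −0.10 and 0.47 for the castrated group. The adipocyte median was −0.26 to −0.021 for the sham group and 0.068 to 0.18 for the castrated group, without overlap. The part of these cell types in the results on the ligases was not tested. Of 70 marker genes measured, of these types and of adipocytes, macrophages, endothelium, fibroblasts, nerve and satellite cells, 0 passed over all genes and 15 had an unadjusted limma p under 0.05, against the 7.13% of all genes given above.

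**Figure D1:**
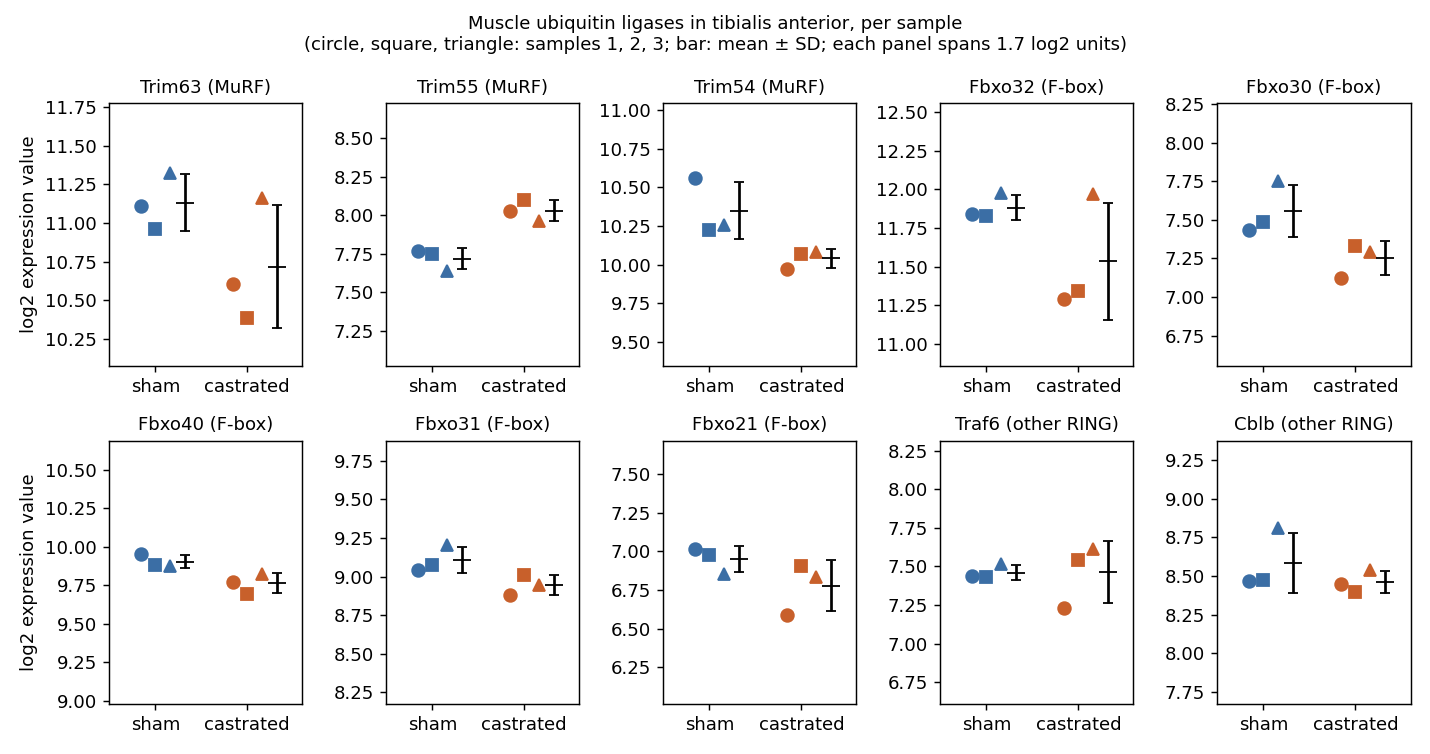
Log2 expression value of each ligase gene (vertical axis) in the 3 sham and 3 castrated samples (circle, square and triangle for samples 1, 2 and 3), with the mean and SD at the right of each group. Castrated sample 3 lies level with the sham samples for Trim63 and Fbxo32, while all 3 castrated samples lie above sham for Trim55 and below it for Trim54.

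Trim63, the MuRF ligase that tags thick filament proteins, had log2 values of 11.11, 10.96 and 11.33 in sham samples 1 to 3 and of 10.61, 10.39 and 11.16 in castrated samples 1 to 3. Castrated samples 1 and 2 lay below every sham sample, and castrated sample 3 lay above sham samples 1 and 2, so the groups overlapped. The means were 11.13 ± 0.18 and 10.72 ± 0.40 (SD, n = 3 each), a log2 difference of −0.41 with a 95% interval of −0.85 to 0.021 (limma adjusted p = 0.716). Without castrated sample 3 the difference was −0.64 and without castrated sample 2 it was −0.25.

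Trim54 (MuRF3), which associates with microtubules and sarcomeres, had values of 10.56, 10.23 and 10.26 in sham and of 9.97, 10.07 and 10.08 in castrated samples. Every castrated sample lay below every sham sample, with sham sample 1 the highest. The log2 difference was −0.31, with an interval of −0.57 to −0.043 (limma adjusted p = 0.682). It was −0.20 without sham sample 1. A second, dimmer probe set of Trim54 differed by −0.27 (standard error 0.11).

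Trim55 (MuRF2), which takes part with the kinase domain of titin in signalling from the sarcomere, had a difference of the opposite sign. Its values were 7.77, 7.75 and 7.64 in sham and 8.03, 8.10 and 7.96 in castrated samples, so every castrated sample lay above every sham sample. The means were 7.72 ± 0.068 and 8.03 ± 0.070 (SD, n = 3 each), a log2 difference of 0.31 with an interval of 0.091 to 0.53 (limma adjusted p = 0.646). With any sample left out it stayed between 0.27 and 0.34. Among the 53 measured genes named Trim plus a number, Trim63 had the lowest difference and Trim55 the highest, and the median of that family was −0.035 (−0.061 after quantile normalization and −0.073 with arrays centred on their medians).

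Within the MuRF family the gap between Trim55 and Trim54 differed by 0.62 between the groups. With each gene centred, Trim55 minus Trim54 was −0.47, −0.16 and −0.30 in sham samples 1 to 3 and 0.38, 0.35 and 0.20 in castrated samples 1 to 3. The sign was the same in all samples of a group and opposite between the groups. This adds nothing new, since Trim55 lay below its own mean in every sham sample and above it in every castrated sample. Trim54 did the reverse. Trim55 minus Trim63 was −0.29, −0.16 and −0.63 in sham and 0.47, 0.76 and −0.15 in castrated samples, with castrated sample 3 on the sham side. These gaps were looked at because the genes had differences of opposite sign, and they are given with no test.

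**Figure D2:**
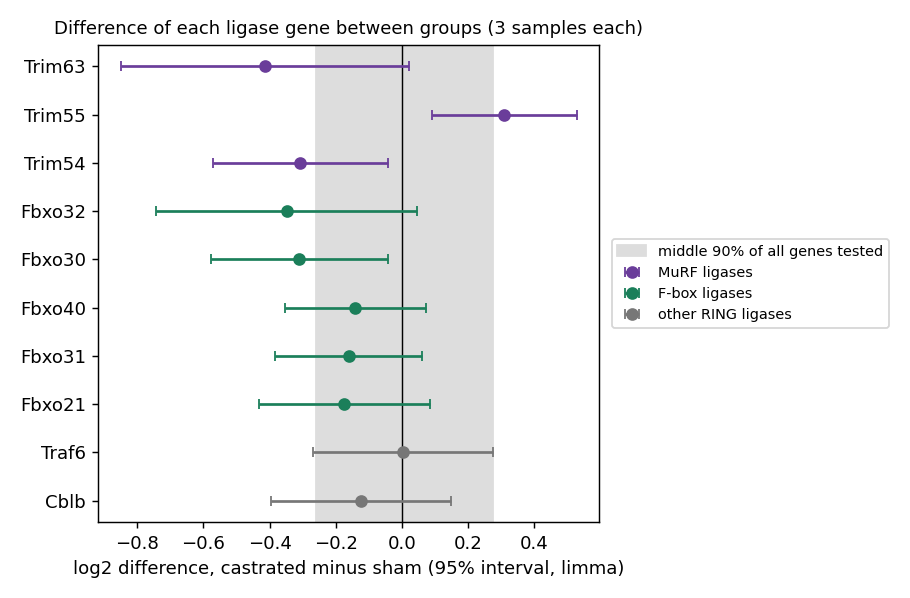
Log2 difference, castrated minus sham (horizontal axis), of each ligase gene with its 95% interval from limma, coloured by family, over the middle 90% of all genes tested in grey. The 5 F-box genes lie left of 0 and the MuRF genes on both sides, and the intervals of Trim55, Trim54 and Fbxo30 do not reach 0 before adjustment over all genes.

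Fbxo32, the F-box ligase whose described substrates are the translation factor Eif3f and the myogenic factor Myod1, had values of 11.84, 11.83 and 11.98 in sham and of 11.29, 11.34 and 11.97 in castrated samples. Castrated samples 1 and 2 lay below all sham samples, and castrated sample 3 was level with the highest sham sample. The SD was 0.082 in sham and 0.38 in castrated samples. The log2 difference was −0.35, with an interval of −0.74 to 0.047 (limma adjusted p = 0.744), and leaving out castrated sample 3 gave −0.57, leaving out castrated sample 1 −0.23.

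Fbxo30 (MUSA1), a ligase that BMP signalling restrains and that is induced after denervation, had values of 7.44, 7.49 and 7.75 in sham and of 7.13, 7.33 and 7.29 in castrated samples. The groups did not overlap, and sham sample 3 stood highest. The log2 difference was −0.31, with an interval of −0.58 to −0.041 (limma adjusted p = 0.682). Fbxo30 and Fbxo32 had the lowest differences of the 36 measured genes named Fbxo plus a number, whose median was −0.041 (−0.020 after cyclic loess and −0.026 after quantile normalization, −0.079 with arrays centred on their medians).

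Fbxo40, a striated-muscle ligase for the insulin receptor substrate Irs1, had values of 9.95, 9.88 and 9.88 in sham and of 9.77, 9.69 and 9.82 in castrated samples. The groups did not overlap, by a small margin, and the log2 difference was −0.14 (standard error 0.094). Fbxo31, which targets cyclin D1, had values of 9.04, 9.07 and 9.20 in sham and of 8.88, 9.01 and 8.95 in castrated samples. These groups did not overlap either, and the log2 difference was −0.16 (standard error 0.098).

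Fbxo21 is a ligase of the SCF type that is also induced in wasting muscle. Its values were 7.02, 6.98 and 6.85 in sham and 6.59, 6.91 and 6.83 in castrated samples. The groups overlapped, with castrated sample 1 apart from the others, and the log2 difference of −0.17 (standard error 0.11) was −0.081 without that sample. For Fbxo40, Fbxo31 and Fbxo21 the limma adjusted p lay between 0.784 and 0.793.

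Traf6, a ligase and adaptor of cytokine receptor signalling, had values of 7.44, 7.43 and 7.51 in sham and of 7.23, 7.54 and 7.61 in castrated samples. Its castrated samples lay on both sides of the sham samples, and the log2 difference was 0.0027 with an interval of −0.27 to 0.27 (limma adjusted p = 0.998). Its sign has no meaning here, since centring the arrays on their medians gave −0.035. Cblb, which tags Irs1 in unloaded muscle, had values of 8.47, 8.47 and 8.81 in sham and of 8.45, 8.40 and 8.54 in castrated samples. The groups overlapped, and the log2 difference of −0.12 (limma adjusted p = 0.861) was −0.0098 without sham sample 3.

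By the mean over genes the F-box family was lower by more than the MuRF family, by a small margin. The mean difference was −0.23 over the 5 F-box genes and −0.14 over the 3 MuRF genes, a gap of 0.090. The medians had the opposite order, −0.17 for the F-box and −0.31 for the MuRF genes. On single arrays the mean of the F-box genes, each centred, was 0.091, 0.083 and 0.17 in sham and −0.24, −0.11 and 0.0058 in castrated samples, with no overlap. The mean of the MuRF genes was 0.15, −0.020 and 0.077 in sham and −0.13, −0.15 and 0.069 in castrated samples, which overlapped. MuRF minus F-box was −0.045 ± 0.089 in sham and 0.045 ± 0.072 in castrated samples (SD, n = 3 each), so the gap was of the size of the spread within groups. Without Trim63 the other MuRF genes averaged to a difference of 0.0016, Trim55 and Trim54 being of like size and opposite sign, and without Fbxo32 the other F-box genes averaged to −0.20.

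Castrated sample 1, which stood apart in slow fibre markers, also held the lowest value of Fbxo32, Fbxo30, Fbxo31, Fbxo21, Trim54 and Traf6. Trim63, Fbxo40 and Cblb were lowest in castrated sample 2, whose slow fibre median was −0.24. The share of all genes lowest in either sample was not counted. Without castrated sample 1 the F-box mean difference was −0.17 and the MuRF mean difference −0.11, and 8 of the 10 ligases were still lower. Without castrated sample 3 the means were −0.29 and −0.21, and 9 of the 10 were lower.

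**Figure D3:**
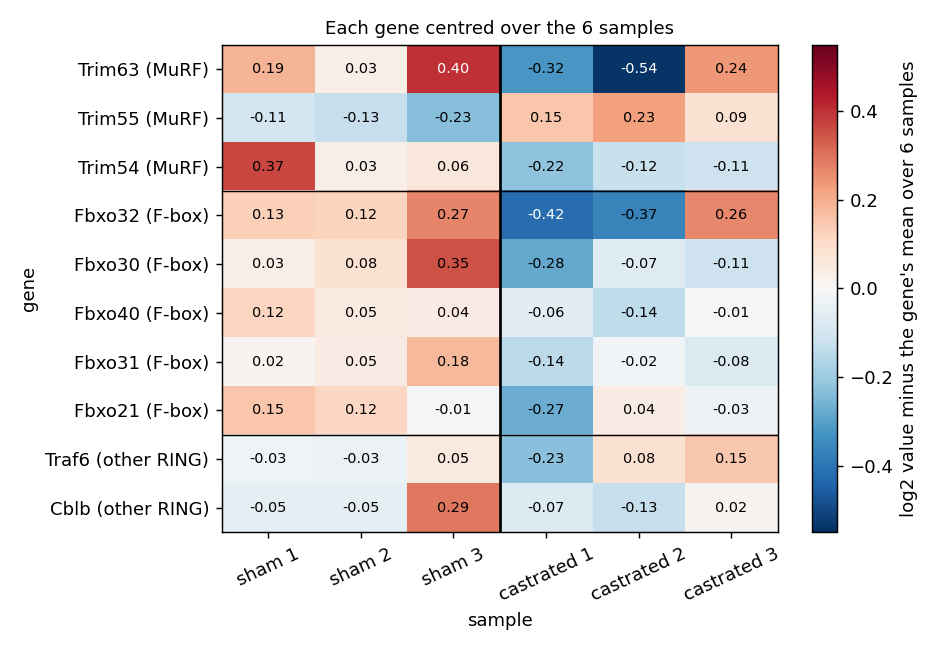
Log2 value of each ligase gene (rows) in each sample (columns) minus the gene's mean over the 6 samples, printed in the cell and shown as colour from blue (lower) to red (higher). Trim63 and Fbxo32 share the same order of high and low samples apart from castrated samples 1 and 2, with castrated sample 3 at 0.24 and 0.26, and Trim55 is below its mean in every sham sample and above it in every castrated sample.

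Trim63 and Fbxo32 resembled each other across the 6 samples more than either resembled another of the ligases. Likeness was measured as the root mean square difference between the centred log2 values of 2 genes, so a smaller value is more alike. It depends on the size of the spread as well as on the order of samples. Trim63 and Fbxo32 had the widest ranges of the ligases over the samples, 0.94 and 0.69. Trim63 differed from Fbxo32 by 0.11, where the other ligases differed from Fbxo32 by 0.21 for Fbxo30 to 0.42 for Trim55. Of 10520 genes in the brighter part of the array, 0 were closer to Trim63 than Fbxo32 was, and 6 were closer to Fbxo32 than Trim63 was. Trim55 was among the least alike, with 10081 of these genes closer to Fbxo32.

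The nearest genes to Fbxo32 were Ttll7, a tubulin-modifying enzyme (0.074), Npc1, which exports cholesterol from lysosomes (0.078), Tma16 (0.084), Zfp697 (0.0998) and the small nucleolar RNA host gene Snhg5 (0.10). Ttll7 for example stood at 10.35, 10.36 and 10.34 in sham and at 9.83, 9.89 and 10.37 in castrated samples, high again in castrated sample 3. The nearest genes to Trim63 apart from Fbxo32 were Fkbp5, a chaperone of steroid receptors (0.111), Lrrc58 (0.112), the translation repressor Eif4ebp1 (0.12), the nucleoside kinase Uck2 (0.12) and lipocalin Lcn2 (0.13). Fkbp5 stood at 7.81, 7.35 and 7.90 in sham and at 7.33, 6.94 and 7.83 in castrated samples. That castrated sample 3 was the highest castrated sample in each of these 10 genes follows from how they were chosen. None of the 10 passed over all genes (limma adjusted p from 0.597 to 0.803).

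Of the upstream regulators, Foxo1 had a log2 difference of −0.029 (standard error 0.11), Foxo3 of 0.082 (standard error 0.11) and Klf15, a glucocorticoid-induced factor, of 0.027 (standard error 0.12). None of these signs was fixed: quantile normalization gave 0.0070 for Foxo1, centring on array medians gave −0.011 for Klf15, and leaving out castrated sample 3 gave −0.0040 for Foxo3. Each of the 3 had its highest castrated value in castrated sample 3, at 8.38, 7.03 and 7.88, and the share of all genes that did so was not counted. Nr3c1, the glucocorticoid receptor, stood at 8.56, 8.50 and 8.57 in sham and at 8.40, 9.01 and 8.78 in castrated samples, and its groups overlapped (log2 difference 0.19, standard error 0.15, 0.045 without castrated sample 2 and 0.35 without castrated sample 1).

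The myostatin gene Mstn stood at 8.98, 9.01 and 8.66 in sham and at 9.01, 8.99 and 9.82 in castrated samples, with castrated sample 3 above the rest, and its log2 difference of 0.39 was 0.12 when that sample was left out. The lowest p in this list belonged to Ppargc1a, a coactivator known to restrain FOXO action on the ligase genes. It stood at 8.84, 9.03 and 8.97 in sham and at 9.41, 10.53 and 10.16 in castrated samples, with no overlap (log2 difference 1.09, standard error 0.24, limma adjusted p = 0.446). Tnfrsf12a, the receptor of the cytokine TWEAK, differed by −0.56 (limma adjusted p = 0.668, and −0.33 without castrated sample 2) and Stat3, a cytokine-activated factor, by −0.29 (limma adjusted p = 0.682), both without overlap. Of the 29 regulators measured 15 were higher and 14 lower, with a median of 0.0060 (−0.032 with arrays centred on their medians), and 0 passed over all genes (3 at an unadjusted limma p under 0.05, where 7.13% of all genes were).

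The rest of the ubiquitin pathway was read beside all genes, of which 51.5% were lower, and beside those above the median signal, whose median difference was −0.030. Of 20 E2 enzymes, which hand ubiquitin to the ligases, 12 were lower, with a median of −0.043. Their smallest p belonged to Ube2n (−0.22, groups apart), Cdc34, an E2 of the SCF complexes (−0.37, or −0.24 without sham sample 1), and Ube2v2 (0.24, groups apart, or 0.12 without sham sample 2). Of 18 genes of the SCF core and of neddylation, the cullin-activating modification, 16 were lower, with a median of −0.047. After quantile normalization these medians were −0.0036 and −0.0069. Cul1, the SCF scaffold, stood at 9.58, 9.61 and 9.64 in sham and at 9.32, 9.52 and 9.46 in castrated samples, with no overlap (−0.17, standard error 0.099, and −0.12 without castrated sample 1). Ube2f and Nedd8 of the same list differed by −0.19 and −0.14, which were −0.062 without castrated sample 1 and −0.037 without sham sample 1. Of the E1 enzymes and ubiquitin genes only Uba6 was analysed here (−0.088, or −0.035 without castrated sample 1 and −0.18 without castrated sample 2).

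Other ligases of muscle showed no common direction. Of 29 measured, 14 were higher and 15 lower, with a median of −0.013, which quantile normalization turned to 0.014. The membrane-repair protein Trim72 differed by −0.17 and the SOCS-box gene Asb5 by −0.21, both without overlap, and Asb15 by 0.33 (0.18 without castrated sample 2). Of 24 deubiquitinases, which remove ubiquitin, 18 were lower, with a median of −0.071 (−0.043 after cyclic loess normalization and −0.11 with arrays centred on their medians). Usp2 stood at 9.78, 9.97 and 9.62 in sham and at 10.16, 10.26 and 10.13 in castrated samples and was higher without overlap (0.39, standard error 0.12, limma adjusted p = 0.616). Usp13 differed by −0.24 (−0.16 without sham sample 3) and Uchl3, a dim gene, by −0.33 (−0.21 without castrated sample 1). Of 15 genes that carry ubiquitylated proteins towards breakdown 13 were lower, with a median of −0.13. In 4 of the 15 the groups did not overlap, all lower, where 7.02% of all genes were lower without overlap. These were Faf1 (−0.18), Nsfl1c (−0.17), Rad23b (−0.17) and, outside the rule for named genes and picked after its values were seen, Sqstm1 (−0.15).

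Described substrates of these ligases had mixed differences. Of 21 measured 13 were lower, with a median of −0.022 (−0.0052 after cyclic loess normalization, −0.059 with arrays centred on their medians and −0.064 without sham sample 3). Ppp3ca, the calcineurin catalytic subunit (0.34, limma adjusted p = 0.626), and Ccnd1, the cyclin that Fbxo31 targets (0.40, limma adjusted p = 0.658), were higher without overlap. These are RNA values, and substrate protein, on which the ligases act, was not measured. Myod1 differed by −0.29 (limma adjusted p = 0.691), Eif3f by −0.083 (−0.013 without sham sample 1) and Irs1 by −0.040, a sign that turned after quantile normalization (0.0028). In none of these lists of E2 enzymes, SCF genes, other ligases, deubiquitinases, carriers and substrates did a gene pass over all genes by limma. At an unadjusted limma p under 0.05 the counts in that order were 1 of 20, 0 of 18, 0 of 29, 1 of 24, 0 of 15 and 3 of 21, beside 7.13% of all genes.

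**Figure D4:**
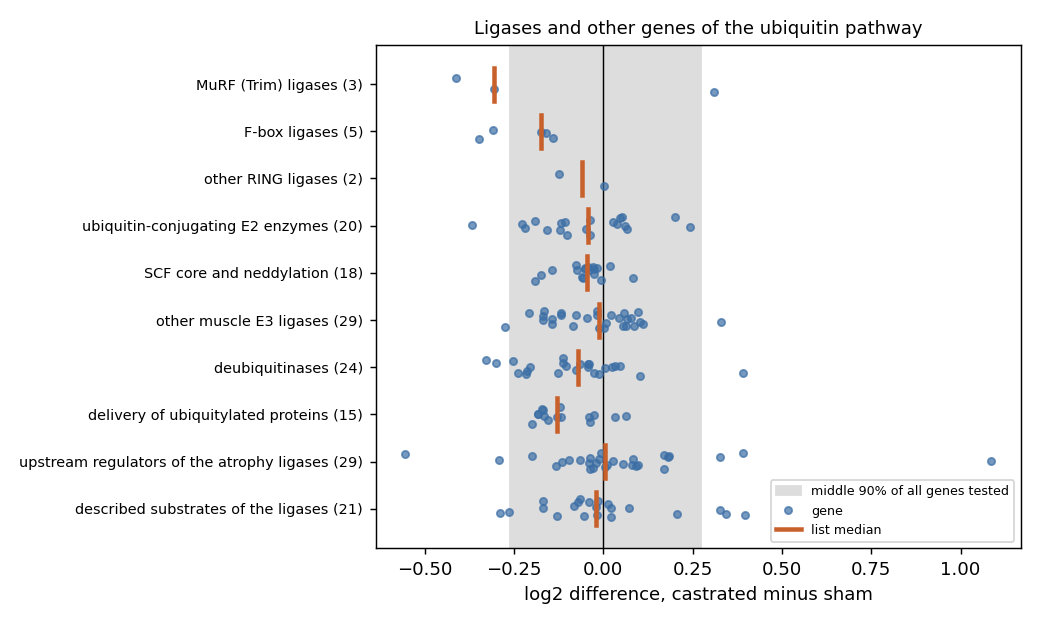
Log2 difference, castrated minus sham (horizontal axis), of each gene (blue points) of the ligase families and of the other lists of the ubiquitin pathway, with list medians as orange bars, the number of genes in brackets and the middle 90% of all genes tested in grey. The medians run from −0.31 for the MuRF genes to 0.0060 for the upstream regulators, whose highest point is Ppargc1a at 1.09.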

How the data were processed

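RNA from the tibialis anterior of 3 sham and 3 castrated mice was measured on Affymetrix whole-transcript arrays. The values the authors deposited are log2 expression values per probe set, already normalized. Per the submitters' processing notes Partek was used. How background, summarization and scaling were handled is not stated in the labels. Precision is limited by the number of arrays. Of 41345 probe sets 23521 carry 1 symbol in the platform annotation, updated through Entrez identifiers against GRCm38.p6 names for 23328 of them. The brightest probe set on average stood for each of 22180 genes. Percentiles of mean signal rank probe sets by brightness and are no measure of abundance between genes.

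Castrated was compared with sham for every gene by limma 3.58.1 (R 4.3.3) without covariates. P-values were adjusted by Benjamini-Hochberg over the 22180 genes and called under 0.05. Intervals are limma's 95% intervals of single genes, without adjustment. The ligases and the gene lists were chosen with earlier results of these data known. Named genes are the ligases, the 3 with the smallest p of each pathway list, a fixed set of regulators and substrates, and the 5 genes most like Fbxo32 and Trim63 among those above the median signal. Some genes of the fixed set are not reported here. On simulated data for castrated against sham (22180 genes, 200 changed) the test recovered 10% of genes changed by 0.5, 82% of genes changed by 1 and 100% of genes changed by 1.5 or 2 on the log2 scale, with 12 false calls. Alternatives were other normalizations, filters on dim genes, other probe-set rules, a replicate block, other variance priors, array weights and leaving out each sample. Figures were drawn with matplotlib 3.10.9.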

Additional observations from a re-analysis of the deposited data

How the results depend on the processing

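None of the 10 ligases passed under any of the 17 alternatives run, and all but Traf6 kept their direction in each. Traf6 changed sign when arrays were centred on their medians (−0.035) and ran from −0.072 to 0.12 with a sample left out. Among 39 other genes named, Foxo1 (0.0070 after quantile and 0.0097 after cyclic loess normalization, 0.0059 with array weights, −0.11 to 0.026 with a sample left out), Klf15 (−0.011 with centred medians, −0.058 to 0.082), Irs1 (0.0028 after quantile normalization, −0.17 to 0.11) and Foxo3 (−0.0040 to 0.13) also changed sign, and 0 passed. That centring moved the median of all genes to −0.043. The number of genes past the threshold, 3 in all, was 9 without genes under the 25th percentile of mean signal, 16 without those under the 50th, 10 with a trended robust variance prior and 0 without variance moderation (1412 genes at an unadjusted p under 0.05). The filters leave fewer genes to adjust over and also refit the variance prior on the genes kept. The cause of any of these shifts was not tested. With a sample left out it was 3 to 4. The smallest adjusted p of any ligase was 0.269, for Trim55 without genes under the 50th percentile. MuRF minus F-box ran from 0.059 to 0.14 with a sample left out and from 0.088 to 0.099 otherwise. The labels tie same-numbered samples of the groups by number alone. Their deviations correlated at 0.076, 0.033 and 0.047, but all 6 samples correlated best with their own number. The tendon median fell from sample 1 to sample 3 in both groups. Trim63 was highest in sample 3 and lowest in sample 2 of each group. Whether same-numbered samples share more than the number was not tested. With that number as a replicate block 2 genes and 0 ligases passed, and MuRF minus F-box was 0.090. With 3 samples a group the simulated test recovered 10% of genes changed by 0.5, the smallest change simulated. The ligase differences, of which the largest was −0.41 for Trim63, were all smaller in size, and recovery at their size was not simulated.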
